A study of Homo sapiens with 8 samples.

Results

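Peaks of RBFOX2 and of TIA1 were examined in 10 genes whose pre-mRNAs are known targets of the RBFOX splicing regulators: ENAH, FGFR2, NUMB, ECT2, CTTN, SLK, EPB41, MAP3K7, PICALM and KIF21A. The genes were chosen as known RBFOX targets, and the rule that assigns peaks to them uses position and strand and no measured value. A peak was a member when it overlapped the gene's hg19 span, given in whole kb, on the gene's strand. By this rule 33 of the 7442 deposited peaks were members, namely 18 of 4227 RBFOX2 peaks (0.426%) and 15 of 3215 TIA1 peaks (0.467%). They fell in 6 of the 10 genes. The opposite strand of the same spans held 0 peaks of RBFOX2 and 0 of TIA1.

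The peaks come from eCLIP, which sequences the RNA fragments that ultraviolet light has fixed to a protein and that are pulled down with it. The 8 libraries were made from HEK293T, an established line of human embryonic kidney origin that expresses SV40 large T antigen, after 600 mJ of ultraviolet light. For each protein there were 2 immunoprecipitated (clip) libraries, with an anti-HA tag antibody in the labels, and 2 input libraries with no antibody. The labels name no construct, clone or other treatment for any group, and 1 protocol text mentions TIA1-bound beads for all libraries, those of RBFOX2 included. The authors' list for each protein joins both replicates into 1 value per peak, so no spread between libraries can be given, no test between conditions was run, and the depth behind a peak is unknown. In both lists the log2 fold, read as clip over input, is never below 3, and −log10 p is never below 3.01, so weaker binding in any of the 10 genes is not seen.

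RBFOX proteins recognise GCAUG in RNA. An RBFOX protein bound in the intron downstream of an alternative exon usually promotes inclusion of that exon, and one bound upstream usually promotes skipping. TIA1 recognises U-rich RNA, classically just downstream of weak 5′ splice sites, where it helps the U1 snRNP to define the exon. Several of the 10 genes encode proteins of the actin cytoskeleton and of cell adhesion, and their RBFOX-regulated exons are known to switch between epithelial and mesenchymal cells.

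To show the kind of exon at issue, a coding cassette exon is printed for 6 of the genes from GENCODE 29 transcripts on GRCh38, 4 with peaks and 2 without. For each gene it was the internal coding exon of at least 60 bases and a length divisible by 3 that the smallest share of annotated transcripts contained. Sequences run 5′ to 3′ on the gene's strand, with T for U, and capitals mark GCATG. The ENAH exon is the one known as 11a, included in epithelial cells, and the EPB41 exon is exon 16, which contributes to spectrin-actin binding. The CTTN exon encodes an actin-binding repeat, and the NUMB exon lies in the proline-rich region.
ENAH, 63 bases at chr1:225504991-225505053, minus strand: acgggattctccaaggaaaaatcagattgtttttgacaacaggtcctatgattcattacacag
SLK, 93 bases at chr10:104010816-104010908, plus strand: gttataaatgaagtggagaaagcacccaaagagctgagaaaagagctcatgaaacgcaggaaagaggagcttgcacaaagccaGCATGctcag
CTTN, 111 bases at chr11:70421470-70421580, plus strand: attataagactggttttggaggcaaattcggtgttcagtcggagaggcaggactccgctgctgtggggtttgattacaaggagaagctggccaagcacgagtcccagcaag
EPB41, 63 bases at chr1:29060422-29060484, plus strand: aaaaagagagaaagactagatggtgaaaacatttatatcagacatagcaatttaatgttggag
NUMB, 144 bases at chr14:73279281-73279424, minus strand: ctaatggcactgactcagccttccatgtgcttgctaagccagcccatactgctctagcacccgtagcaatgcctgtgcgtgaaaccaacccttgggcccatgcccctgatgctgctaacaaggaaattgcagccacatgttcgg
MAP3K7, 81 bases at chr6:90544552-90544632, minus strand: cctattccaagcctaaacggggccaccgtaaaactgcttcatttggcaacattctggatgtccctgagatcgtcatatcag

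Such an exon was found in all 10 genes, and 1 of the 10, that of SLK, held GCATG, searched on the transcribed strand. The 6 genes shown were picked because their regulation by RBFOX proteins is well known, which also holds for FGFR2, not shown. The exon of each was set by the annotation rule. Whether each exon printed is the one that RBFOX proteins regulate was not checked. Among annotated cassette exons of the same 93-base length the motif was present in 11 of 191 (5.76%), and among all 6569 such exons in 12.1%. The introns beside these exons, where RBFOX sites usually lie, were not analysed here. The exons are placed on GRCh38 and the peaks on hg19, no position was carried from one build to the other, and so no peak is said to lie in or beside an exon.

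RBFOX2 peaks were present in 3 of its 10 classic target genes, with 10 peaks in ENAH, 7 in SLK and 1 in KIF21A. TIA1 peaks were present in 5 of the 10, with 6 in SLK, 4 in ENAH, 2 in FGFR2, 2 in EPB41 and 1 in CTTN. The share of all genes with a peak in each list needs an hg19 annotation and was not analysed here. Neither count can therefore be called high or low. Both proteins had peaks in ENAH and SLK, RBFOX2 alone in KIF21A, and TIA1 alone in FGFR2, EPB41 and CTTN. No peak of either list fell in NUMB, ECT2, MAP3K7 or PICALM. Many peaks abutted one another, and with peaks within 50 bases joined the RBFOX2 peaks made 6 sites and the TIA1 peaks 8.

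**Figure D1:**
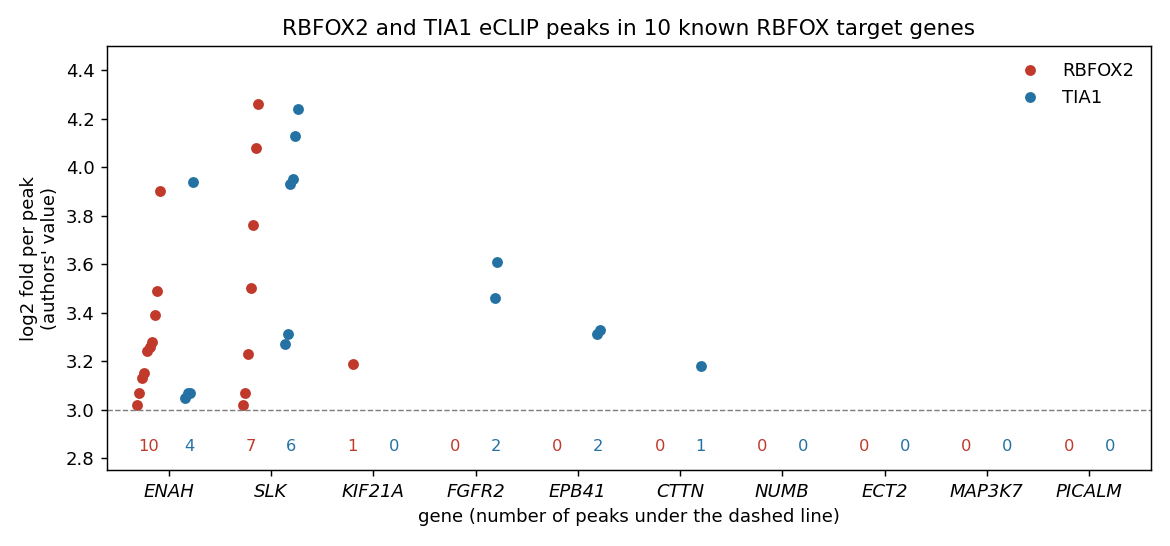
Log2 fold of every deposited peak (vertical axis, from the authors' lists) in each of the 10 genes, RBFOX2 in red and TIA1 in blue. The number of peaks stands under the dashed line at the lists' lower limit of 3, and all peaks above a log2 fold of 4 lie in SLK.

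The folds of the members were set beside those of their whole lists. RBFOX2 member peaks had log2 folds from 3.02 to 4.26 with a median of 3.25, against a median of 3.48 over all RBFOX2 peaks. TIA1 member peaks ran from 3.05 to 4.24 with a median of 3.33, against 3.36 over all TIA1 peaks. Log2 folds of 4 or more were seen in 2 of the 18 RBFOX2 members (11.1%), beside 19.3% of all RBFOX2 peaks. The same level was met by 2 of the 15 TIA1 members (13.3%), beside 9.21% of all TIA1 peaks. These counts are small and the peaks of a gene are neighbours, so neither share can be told from that of its list. The median −log10 p of the members was 8.06 in RBFOX2 (6.77 over the list) and 7.32 in TIA1 (7.36 over the list).

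**Figure D2:**
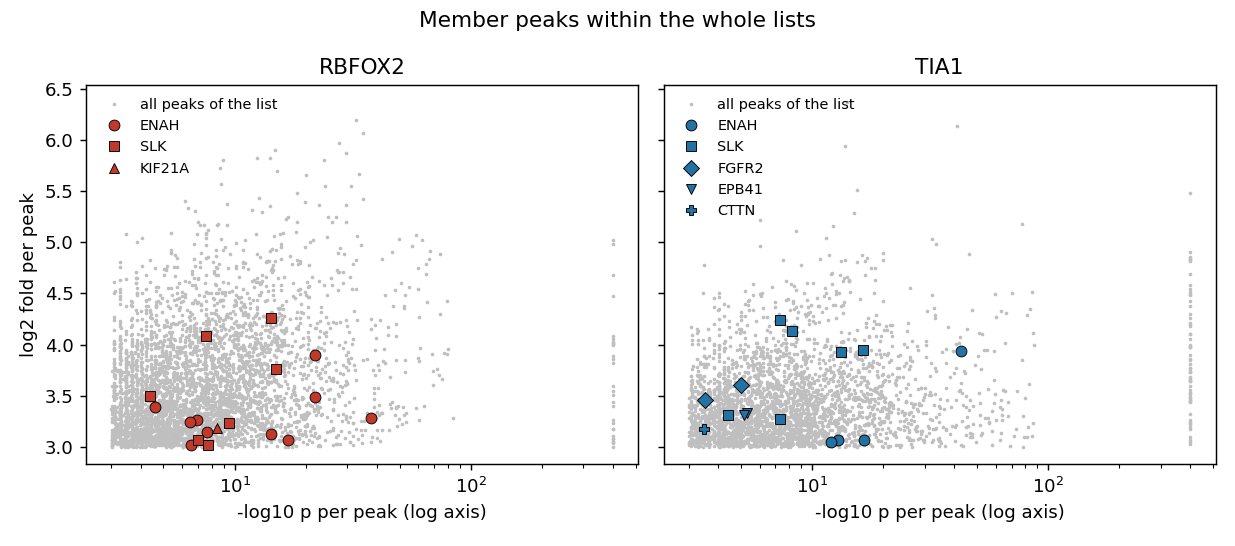
Log2 fold (vertical axis) against −log10 p (horizontal log axis) for all peaks of each list in grey, with the member peaks marked by gene. Members spread through the body of both lists, and none reaches the upper limit of 400 in −log10 p; the highest are ENAH peaks at 37.9 in RBFOX2 and 42.9 in TIA1.

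SLK encodes a serine/threonine kinase that acts on the cytoskeleton and on ERM proteins. Its peaks had the highest folds of any of the 10 genes in both lists. All 7 RBFOX2 peaks abutted and formed 1 site of 311 bases on the plus strand of chromosome 10, from 105726981 to 105727291 in hg19. From the 5′ side their log2 folds were 3.76, 4.08, 3.5, 3.07, 3.02, 3.23 and 4.26, so that both flanks stood above the centre. The last peak, from 105727214 to 105727291, had a 19.2-fold enrichment, a −log10 p of 14.3 and rank 445 of 4227 by fold.

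The TIA1 peaks of SLK covered nearly the same stretch. A joined TIA1 site of 5 peaks ran from 105726981 to 105727307, and a sixth peak followed at 105727383 to 105727437. In order from the 5′ side the 6 log2 folds were 3.93, 3.31, 3.27, 4.24, 3.95 and 4.13. The peak of 4.24, from 105727142 to 105727195, was 18.8-fold enriched and ranked 165 of 3215 by fold, with a −log10 p of 7.29. The RBFOX2 and TIA1 sites began at the same base, and in both lists 1 peak ended at 105727099 and the next began at 105727100. Of the bases under SLK peaks 299 were shared, or 96.1% of the RBFOX2 bases and 80.8% of the TIA1 bases. Between 105727142 and 105727179 the TIA1 peak stood at a log2 fold of 4.24 and the RBFOX2 peak at 3.02, the lowest RBFOX2 value in the gene. The −log10 p of these peaks were close, 7.29 in TIA1 and 7.71 in RBFOX2. With 1 joined value per peak, a difference between the proteins was not tested.

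ENAH encodes the actin regulator Mena, an Ena/VASP protein that promotes filament elongation at the leading edge of moving cells. It carried the most RBFOX2 peaks, 10 of 18, at 4 joined sites on the minus strand of chromosome 1. At 2 of the sites, near the 5′ edge of the gene, TIA1 was also found. The other 2 lay deep in the gene and had RBFOX2 peaks only.

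The deep sites were 134 kb and 156 kb from the 5′ edge of a 167 kb span. The site at 225707026 to 225707177 held 3 RBFOX2 peaks with log2 folds of 3.49, 3.9 and 3.13 in order of position, and −log10 p of 21.8, 21.8 and 14.2. Its central peak, only 9 bases wide, had the highest RBFOX2 fold of ENAH, 15.0-fold. The site at 225684459 to 225684595 held 5 narrow RBFOX2 peaks of 18 to 30 bases, with log2 folds of 3.39, 3.26, 3.24, 3.15 and 3.02 in order of position and −log10 p between 4.6 and 7.64. The log2 folds were thus lower toward higher coordinates, which on this strand is the 5′ side. The −log10 p, at 4.6, 6.94, 6.47, 7.64 and 6.53 in the same order, did not fall with them. The nearest TIA1 peak on the strand was 91.2 kb from the first of these sites and 68.7 kb from the second.

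At the 5′ side of ENAH the strongest peak of both lists lay in the same place. The RBFOX2 peak from 225840677 to 225840808 had a log2 fold of 3.28 and a −log10 p of 37.9, the highest −log10 p of any RBFOX2 member and rank 124 of 4227. The TIA1 peak from 225840676 to 225840819 enclosed it, with a log2 fold of 3.94 (15.3-fold) and a −log10 p of 42.9, rank 154 of 3215. A second RBFOX2 peak, at 225840561 to 225840601 with a log2 fold of 3.07 and a −log10 p of 16.8, shared its last 6 bases with a TIA1 peak at 225840596 to 225840636 of log2 fold 3.05. A further pair of abutting TIA1 peaks, together from 225840388 to 225840505, had log2 folds of 3.07 each and no RBFOX2 peak over them. In ENAH as a whole 138 bases were shared, 32.5% of the RBFOX2 bases and 45.5% of the TIA1 bases.

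KIF21A encodes a kinesin motor that restrains microtubule growth at the cell cortex. Its only RBFOX2 peak was the widest of all members, 291 bases on the minus strand of chromosome 12 from 39836753 to 39837043. It had a log2 fold of 3.19 (9.11-fold) and a −log10 p of 8.41, and rank 3293 of 4227 by fold. The closest TIA1 peak on that strand was 9490 kb away.

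FGFR2 encodes a fibroblast growth factor receptor whose mutually exclusive IIIb and IIIc exons set its ligand preference; RBFOX2 is known to promote the epithelial IIIb form, and TIA1 has also been linked to IIIb splicing. Only TIA1 peaks were found, 157 to 410 bases from the 5′ edge of a 121 kb span on chromosome 10. The stronger, from 123357591 to 123357689, had a log2 fold of 3.61 and a −log10 p of 5.02. The weaker, from 123357759 to 123357844, stood at a log2 fold of 3.46 with a −log10 p of 3.52, close to the limit of the list. The nearest RBFOX2 peak on the gene strand was 1600 kb away from the span.

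EPB41 encodes protein 4.1R, which ties spectrin and actin to the membrane. Its TIA1 peaks abutted, at 29241229 to 29241248 and 29241249 to 29241280 on the plus strand of chromosome 1, 28.2 kb from the 5′ edge of a 234 kb span. Their log2 folds were 3.33 and 3.31, and their −log10 p 5.28 and 5.17. The GENCODE annotation lists 2 other genes on the same strand at the EPB41 locus, RF00017 and RF00019. Where these genes lie relative to the TIA1 peaks was not determined. The peaks are assigned to EPB41 by span and strand only, and whether they come from its RNA was not tested. CTTN encodes cortactin, which stabilises branched actin. Its single TIA1 peak was 10 bases wide, at 70251371 to 70251380 on the plus strand of chromosome 11, with a log2 fold of 3.18 and a −log10 p of 3.48. On the gene strand, no RBFOX2 peak of the list lay closer to the EPB41 span than 206 kb, or to the CTTN span than 3190 kb.

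The genes with no peak were NUMB, an endocytic adaptor and inhibitor of Notch, ECT2, which acts in cytokinesis, MAP3K7, the TAK1 kinase of TGF-beta and NF-kappaB signalling, and PICALM, a clathrin assembly protein. On the gene strand the nearest RBFOX2 peak was 255 kb from the NUMB span, 817 kb from MAP3K7, 2530 kb from ECT2 and 7880 kb from PICALM. The nearest TIA1 peak was 255, 770, 6500 and 2290 kb away in the same order. How strongly these genes are transcribed in these cells is not recorded in the lists, so a gene without a peak is not shown to be unbound.

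**Figure D3:**
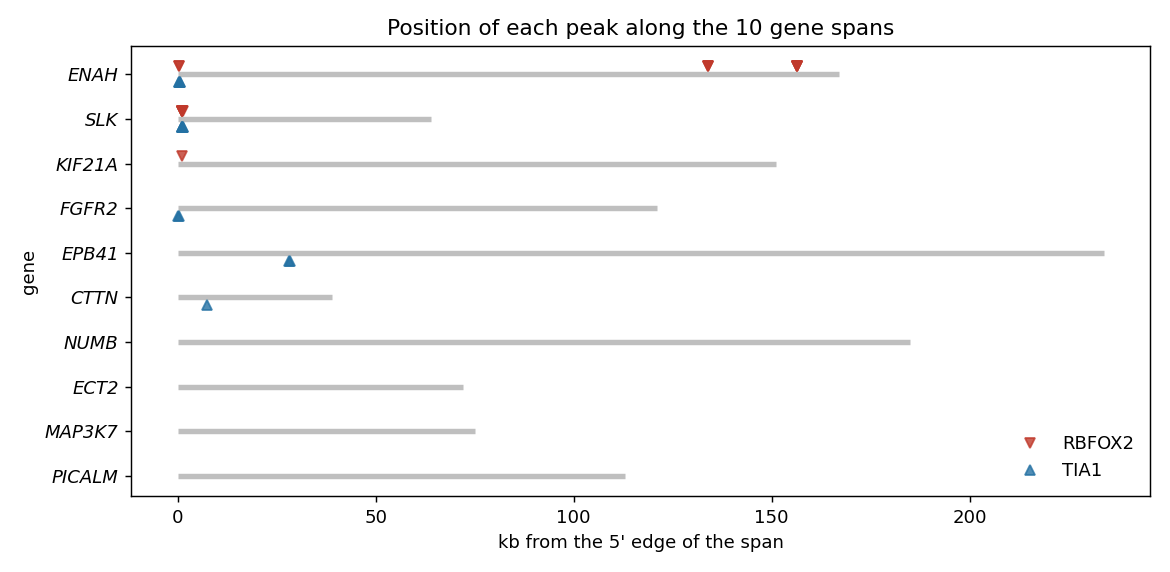
Centre of each peak in kb from the 5′ edge of the gene's span (horizontal axis), with each span as a grey bar, RBFOX2 as red and TIA1 as blue triangles. Symbols lie at the left end in ENAH, SLK, KIF21A (1 peak) and FGFR2 (2 peaks). By contrast, 2 RBFOX2 sites of ENAH and the TIA1 sites of EPB41 and CTTN lie inside the gene.

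In 4 of the 10 genes peaks lay near the 5′ edge of the span. Within 2 kb of that edge, a distance chosen after the positions were seen, were 10 of 18 RBFOX2 peaks (55.6%) and 12 of 15 TIA1 peaks (80.0%). Of the 10 RBFOX2 peaks, 7 were the abutting pieces of the single SLK site, and without SLK 3 of 11 RBFOX2 peaks (27.3%) and 6 of 9 TIA1 peaks (66.7%) lay there. Counted as joined sites, 4 of 6 RBFOX2 and 6 of 8 TIA1 sites did. The 2 kb make up 1.64% of the total span length of 1221 kb, which is a share of length and not of peaks. The share of all peaks of a list that lie so near a gene's 5′ edge needs the hg19 starts of all genes. It was not analysed here, so the shares of the members cannot be called high or low. The RBFOX2 peaks there belonged to ENAH, SLK and KIF21A, and the TIA1 peaks to ENAH, SLK and FGFR2. The 8 RBFOX2 peaks beyond 2 kb were all in ENAH, and the 3 TIA1 peaks beyond it were in EPB41 and CTTN. The spans are rounded to kb and exceed the GENCODE gene lengths on GRCh38 by 0.7 kb in ENAH, 0.8 in KIF21A, 0.9 in FGFR2 and 2.0 in SLK, so where transcription starts relative to a peak was not determined.

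**Figure D4:**
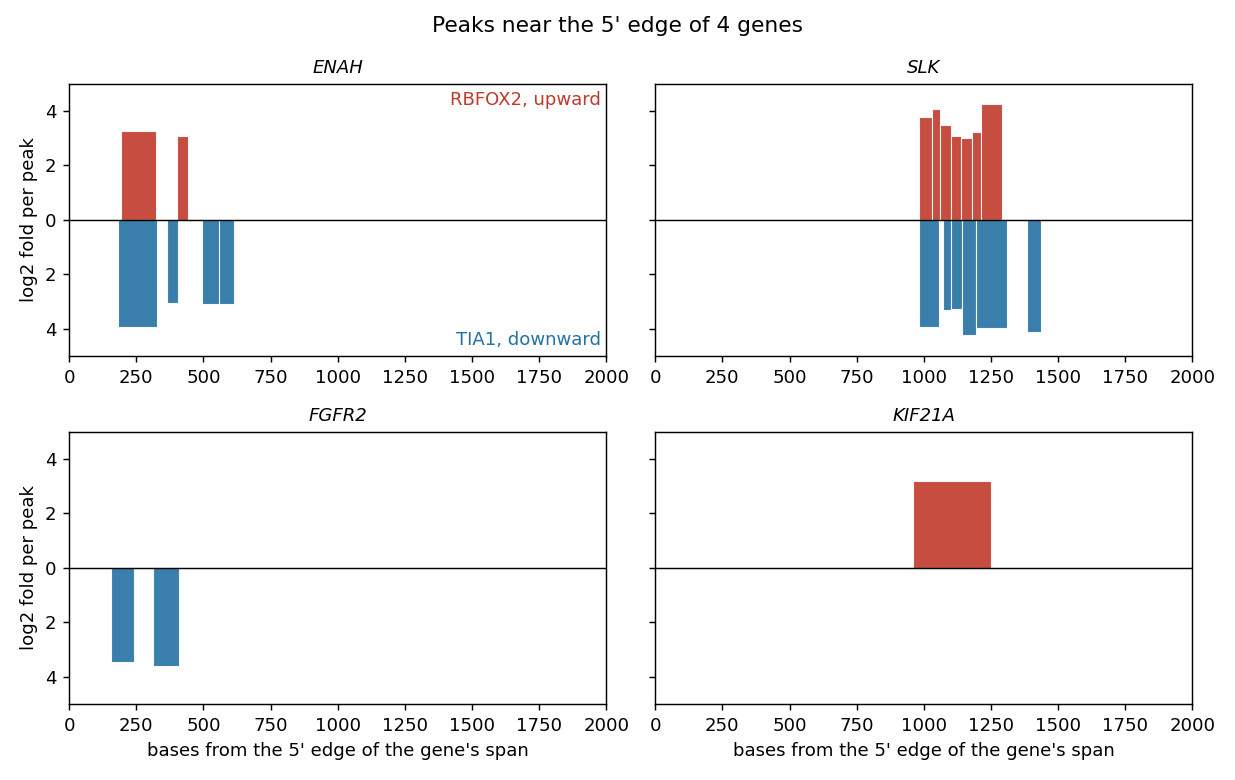
Peaks within 2 kb of the 5′ edge of the span in the 4 genes that had any, each bar as wide as its peak and as tall as its log2 fold, RBFOX2 upward and TIA1 downward. In SLK the 2 proteins' bars cover nearly the same bases, in ENAH only part of them, and in FGFR2 and KIF21A 1 protein is present.

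The annotated first exons of these genes were searched for GCATG on the transcribed strand, taking the longest APPRIS principal transcript of each gene in GENCODE 29. The motif was found once in KIF21A (first exon of 464 bases), once in FGFR2 (442 bases) and once in ECT2 (173 bases). It was not among the letters of the first exons of ENAH (457 bases) or SLK (695 bases), the genes with peaks of both proteins at the 5′ edge. Over equally long starts of all first exons at least as long, GCATG occurred in 26.9% for the KIF21A length, 25.7% for FGFR2 and 10.3% for ECT2. The share was 26.6% for ENAH and 38.5% for SLK. The first exons of NUMB, CTTN, EPB41, MAP3K7 and PICALM also lacked the motif, with shares from 1.98% (NUMB) to 16.1% (MAP3K7). KIF21A had an RBFOX2 peak at its 5′ edge and FGFR2 had TIA1 peaks there. First exons are placed on GRCh38 and peaks on hg19, so whether a motif lies under a peak was not determined. The motifs of KIF21A and FGFR2 are shown with 10 bases on each side, and that of ECT2, a gene without peaks, is not.
KIF21A, bases 419 to 423 of its first exon: cccgccgccaGCATGttgggcgccc
FGFR2, bases 54 to 58 of its first exon: ccgcggggctGCATGcggcgtacct

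The overlap of the proteins was then counted over all members. Among 18 RBFOX2 members, 9 overlapped a TIA1 peak by at least 1 base on the strand, or 50.0% (95% Clopper-Pearson interval 26.0 to 74.0%), beside 21.7% of all RBFOX2 peaks. Among 15 TIA1 members, 7 overlapped an RBFOX2 peak, or 46.7% (21.3 to 73.4%), beside 24.0% of all TIA1 peaks. SLK gave 7 of the 9 RBFOX2 peaks and 5 of the 7 TIA1 peaks. Without SLK 2 of 11 RBFOX2 peaks overlapped (18.2%) and 2 of 9 TIA1 peaks (22.2%), and without ENAH 7 of 8 RBFOX2 peaks did (87.5%). With peaks within 50 bases joined, 3 of 6 RBFOX2 sites overlapped (50.0%) and 2 of 8 TIA1 sites (25.0%). The intervals treat abutting peaks as independent and cover counting error only. The higher shares of single peaks rest mostly on 1 stretch of SLK, while the overlapping joined RBFOX2 sites lay in both ENAH and SLK. Counted in bases, 437 lay under peaks of both proteins, 42.6% of the 1027 bases under RBFOX2 members and 47.5% of the 920 under TIA1 members. Shares of joined sites and of bases over the whole lists were not analysed here. The list shares above apply to single peaks only.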

How the data were processed

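Each protein's peak list joins 2 clip and 2 input libraries of HEK293T cells, per the file titles and sample descriptions. The submitters' processing notes name UMI-tools 1.0.0, cutadapt 1.14, STAR 2.4.0i, SAMtools 1.6 and hg19. No peak caller is named there or in the labels. The authors' lists have no header. The deposited −log10 p-value (at most 400) and the deposited log2 fold were recognised from their ranges, and the fold was taken to set clip against input, the libraries tied to each file. The files hold no counts and no values per replicate.

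Peaks were assigned to the 10 genes by overlap of at least 1 base with the hg19 spans on the gene strand, and positions are printed 1-based. Overlap between proteins needed 1 base on the same strand. The counting was tested on simulated data with planted peaks. Exon sequences and gene lengths came from GENCODE 29 on GRCh38, used without conversion. No hg19 annotation was at hand, so other RBFOX targets were not analysed here. All 10 genes were named, with every peak of a gene that had up to 6 and the sites and extremes of others. Members, spans and alternatives were chosen with earlier results of these data known. Alternatives were other limits on fold and p, joining of peaks, other span edges and overlap rules, and leaving out genes. Python 3.11.15, pandas 2.3.3, numpy 2.4.6 and scipy 1.17.1 were used. Whether the replicates are biological or technical is not settled, since the labels say both.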

Additional observations from a re-analysis of the deposited data

How the results depend on the processing

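With a log2 fold of at least 4 required, 2 RBFOX2 peaks in 1 gene and 2 TIA1 peaks in 1 gene were left, all in SLK; the limit leaves fewer peaks by construction. Joining peaks within 50 bases left 6 RBFOX2 and 8 TIA1 sites, also by construction. Of the RBFOX2 peaks, 87.5% overlapped TIA1 without ENAH and 18.2% without SLK, omissions chosen after the data were seen. Of the TIA1 peaks, 46.7% overlapped RBFOX2, against 25.0% as joined sites and 22.2% without SLK. The share of RBFOX2 peaks within 2 kb of the 5′ edge was 27.3% without SLK. A −log10 p of at least 5 removed CTTN (4 genes with TIA1 peaks), and spans wider by 5 kb added no peak. Of the median log2 folds under alternatives, those of RBFOX2 ran from 3.23 to 3.36 and those of TIA1 from 3.31 to 3.53. The values for joined sites, 3.33 in RBFOX2 and 3.53 in TIA1, take the highest fold of each site. They are therefore not medians of peak folds. With so few peaks, many of them abutting, none of these values shows that a share is stable. No paired analysis was possible because the lists hold no values per replicate, which also prevents leaving a replicate out. Depth is unknown, so a gene without peaks may hold binding under the lists' limits.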
